A study of Mus musculus with 6 samples.

Results

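The genes described here encode the enzymes that interconvert alcohols, aldehydes or ketones and acids in 5 gene families: the alcohol dehydrogenases (symbols beginning Adh and a digit), the aldehyde dehydrogenases (Aldh), the aldo-keto reductases (Akr and a digit, without Akr1d1), the retinol dehydrogenases (Rdh) and the Dhrs members of the short-chain dehydrogenase and reductase superfamily. Every probe set whose platform annotation gave a single symbol of these forms was taken. The choice by symbol used no measured value of a gene, but the families were picked with earlier results of these data known. It gave 99 probe sets for 62 genes, among 45037 probe sets tested and 18193 genes, with 7 Adh, 20 Aldh, 14 Akr, 11 Rdh and 10 Dhrs genes. Each gene is represented by the probe set with the highest mean of log2(intensity + 32) over all arrays.

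Whole livers of mouse embryos were taken at E18.5, late in gestation, and total RNA of each was read on 1 Affymetrix array. The 3 null livers carry the strain label HNF4LoxP/LoxP AlfpCre, with both Hnf4 alleles flanked by loxP sites, and the 3 control livers carry HNF4LoxP/+AlfpCre, with 1 flanked allele and 1 that Cre cannot cut, so that all 6 share the Cre transgene. The question was what the loss of HNF4 alpha, a nuclear receptor of hepatocytes encoded by Hnf4a, does to the RNA of the fetal liver. AlfpCre is driven by albumin and alpha-fetoprotein regulatory elements, which direct recombination to the hepatocyte lineage. Recombination in the other cells of the liver was not measured here.

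In the hepatocyte, Adh enzymes oxidise ethanol and retinol with NAD, and Aldh enzymes oxidise the aldehydes that this and the breakdown of amino acids, lipids and one-carbon units produce. Akr enzymes reduce aldehydes and ketosteroids with NADPH. Retinol is converted to retinaldehyde by short-chain Rdh enzymes, reduced back by others of the Rdh and Dhrs families, and oxidised further to retinoic acid by the Aldh1a enzymes.

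The promoters of the 4 members with the largest falls in log2(intensity + 32) are printed first, an order that changes below the first 2 with other pseudocounts, because HNF4 alpha acts by binding DNA near the genes it regulates. Each window of 300 bases runs from 250 bases before the annotated start to 50 after it, 5′ to 3′ on the strand of the gene, from RefSeq in build GRCm38.p6. Capitals mark matches, on either strand, to the HNF4-specific motif CAAAGTCCA of 9 letters, to its first 6 letters, CAAAGT, or to AGGTCA, the nuclear receptor half-site. The 6-letter start is part of the 9-letter motif, and a half-site match can share its end letters with either.
Rdh7 promoter, chr10:127889198-127889497, minus strand: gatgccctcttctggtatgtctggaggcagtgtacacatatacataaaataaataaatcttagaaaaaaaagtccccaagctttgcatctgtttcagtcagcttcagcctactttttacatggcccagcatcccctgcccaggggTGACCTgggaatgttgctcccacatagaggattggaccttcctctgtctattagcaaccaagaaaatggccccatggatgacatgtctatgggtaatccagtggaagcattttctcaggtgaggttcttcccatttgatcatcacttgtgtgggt
Akr1c6 promoter, chr13:4434093-4434392, plus strand: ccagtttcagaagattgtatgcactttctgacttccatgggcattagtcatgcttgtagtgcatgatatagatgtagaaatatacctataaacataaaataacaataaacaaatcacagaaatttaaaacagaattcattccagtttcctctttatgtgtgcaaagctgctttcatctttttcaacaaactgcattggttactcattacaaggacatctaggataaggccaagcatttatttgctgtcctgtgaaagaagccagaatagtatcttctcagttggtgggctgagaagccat
Aldh8a1 promoter, chr10:21377050-21377349, plus strand: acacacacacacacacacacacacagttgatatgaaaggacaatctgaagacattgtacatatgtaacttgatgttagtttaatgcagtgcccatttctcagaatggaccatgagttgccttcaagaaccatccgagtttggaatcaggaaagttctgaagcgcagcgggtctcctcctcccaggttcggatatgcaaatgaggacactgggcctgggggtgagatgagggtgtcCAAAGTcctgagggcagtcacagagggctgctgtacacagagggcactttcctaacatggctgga
Adh1 promoter, chr3:138277335-138277634, plus strand: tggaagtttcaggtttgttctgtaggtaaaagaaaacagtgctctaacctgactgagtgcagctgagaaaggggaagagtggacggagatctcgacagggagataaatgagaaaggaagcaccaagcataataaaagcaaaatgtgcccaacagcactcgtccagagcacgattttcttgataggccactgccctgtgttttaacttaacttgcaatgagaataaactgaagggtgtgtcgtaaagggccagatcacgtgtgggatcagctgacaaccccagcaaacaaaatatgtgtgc

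The full motif CAAAGTCCA was in 0 of the 56 windows of the 49 members that the table holds, and in 0.475% of all 32851 windows. AGGTCA was in 12 member windows (21.4%), against 16.3% of all windows, and CAAAGT in 10 (17.9%), against 14.4%. The Rdh7 window holds the half-site on the opposite strand with its first base at position -105 from the start, and a second annotated Rdh7 start site had no match. The Aldh8a1 window holds CAAAGT at position -15. The Akr1c6 and Adh1 windows hold none of these letters. HNF4 alpha may bind other forms of its motif and other places, which these searches do not cover.

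The arrays were close in overall level, with medians from 91.8 to 99.5 and highest values from 11302 to 12608. Hnf4a, the deleted gene, stood in the null livers at 62.2% to 73.7% of the control mean in its 4 probe sets, of which 2 were called lower. Whether any of these reads the deleted exons was not examined. Null_61 and Control_8 are numbered apart from the other 4 arrays in their titles. They stood apart in the control probe set for the 5′ end of 18S ribosomal RNA, at 33.5 and 42.1, against 515 and 616 in the other null and 505 and 449 in the other control arrays. The labels do not call the number run a batch. Read from Xist and Y-linked probe sets, Null_61, Control_1192 and Control_1193 were male, and Null_1191, Null_1195 and Control_8 were female. Sex was thus uneven between the groups, and any fit without Null_61 holds only female null livers. Alb, the defining hepatocyte gene, read 11079, 10708 and 10165 in the null and 10419, 10839.7 and 10337 in the control livers, and Afp likewise lay near the top of the scale, between 11302 and 11995 in all 6. Summed over 5 measured hepatocyte marker genes, the intensity was 33702 to 35946 in the null and 54819 to 55522 in the control livers. Of the 5 genes 3 were called lower, against 7.85% of all genes. Alb and Afp were the 2 not called, with log2 changes of 0.02 and -0.06. Afp was itself the highest value of Null_1191 and of Null_1195. Whether values so near the top of the scale could show a change was not tested. Apoa1 was among the 3 called, at 2693.9, 2624.5 and 4052 in the null and 11593, 11956 and 11936 in the control livers. The lower sum thus did not come from Alb. In whole livers, fewer hepatocytes and less RNA per hepatocyte cannot be told apart. No label says that litters differed, and the p-values cover only how much these arrays varied, which may be technical in part.

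Throughout, values are deposited intensities, listed for Null_61, Null_1191 and Null_1195 and then for Control_8, Control_1192 and Control_1193. A log2 change is the null minus the control mean of log2(intensity + 32), which understates the change of dim genes, and a fold is that change on a linear scale, given only where both group means exceed 99.5, the highest array median. A gene was called where limma's adjusted p, over all 45037 probe sets, was under 0.05.

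Of the 62 genes, 24 fell in the null livers and 0 rose. Over all 18193 genes the called shares were 7.85% lower and 1.56% higher, or 9.4% in either direction. With quantile normalization these shares were 6.57% lower and 3.39% higher, and 23 of the 62 fell and 0 rose. The count by limma at an unadjusted p under 0.05 was 34 of 62, against 24.3% of all genes, and of these 34 Adh6b, Aldh18a1 and Akr1c19 were higher. The median log2 change was -0.40 over the 62 genes and 0.01 over all genes. By family, 2 of 7 Adh, 12 of 20 Aldh, 5 of 14 Akr, 3 of 11 Rdh and 2 of 10 Dhrs genes fell, with median log2 changes of -0.47, -0.73, -0.44, -0.02 and 0.07. The 24 falls ranged from -5.21 to -0.55 on the log2 scale, and 8 of them exceeded 2 in size. All 24 had 3 null livers below 3 control livers, as had 8 genes that were not called. In 6 uncalled genes the null livers lay above, and in 24 the groups overlapped. Over all genes the groups were apart in 31.0%, with the null livers below in 17.9% and above in 13.2%. With Null_61, the only male null liver, left out, 25 members fell and 1 rose. Without Control_1192 the count of falls was lowest among the arrays left out in turn, at 19. For the fits with 1 array left out the shares over all genes were not taken. With the number run as a term 28 fell and 1 rose, and within the 4 arrays left when Null_61 and Control_8 were both omitted 27 fell and 0 rose. Over all genes the shares lower and higher were 11.1% and 4.11% with that term, and 8.60% and 2.33% in the 4 arrays. The other run holds 1 array of each group and gives no test. In the 4 arrays without Null_61 and Control_8 the null livers were all female and the control livers all male. Sex and genotype cannot be told apart there.

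**Figure D1:**
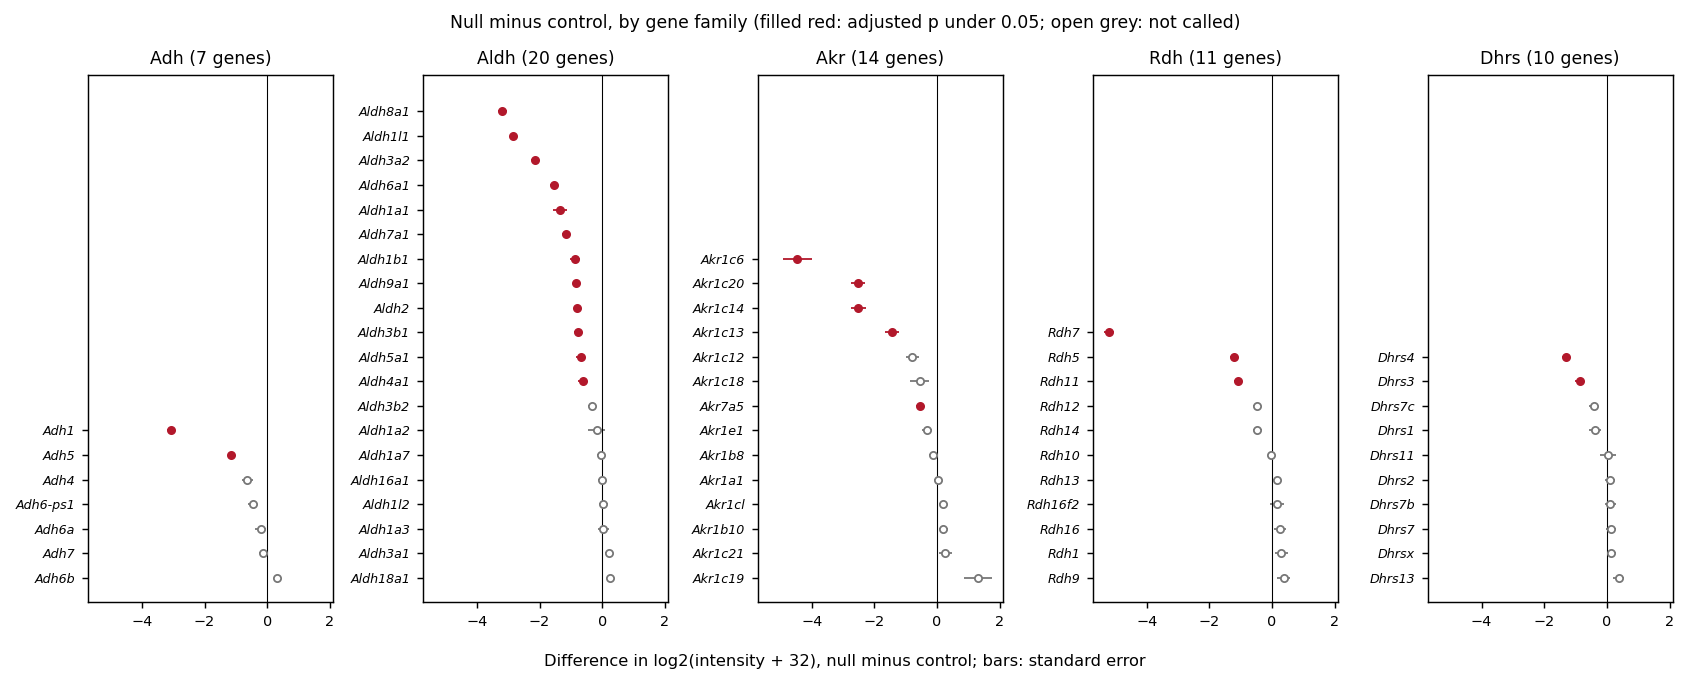
Difference in log2(intensity + 32), null minus control, for each of the 62 genes by family, with standard errors as horizontal bars; filled red points passed an adjusted p of 0.05 and open grey points did not. The 24 called genes all lie left of 0, led by Rdh7 at -5.21, and 12 of them are Aldh genes.

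Among the alcohol dehydrogenases, Adh1 and Adh5 fell and the other 5 genes were not called. Adh1, the class I enzyme that oxidises ethanol and retinol and typifies the liver, read 539, 705 and 617 in the null livers, against 5626, 5178 and 5576 in the control livers. All null values lay far below all control values, a fall of 8.46-fold (log2 change -3.08, standard error 0.12, adjusted p = 1.04e-06). Adh5, the class III enzyme that oxidises the glutathione adduct of formaldehyde and is present in most tissues, read 1163, 1148 and 1222 in the null livers and 2699.9, 2567 and 2728 in the control livers. Its groups were also apart, by a smaller 2.23-fold (log2 change -1.16, standard error 0.09, adjusted p = 8.84e-05). The other Adh5 probe set was dim and not called, at 31.3, 34.9 and 41.5 in the null and 39.3, 26.3 and 40.6 in the control livers, and with the mean of both the log2 change was -0.57.

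Adh4, the class II enzyme, was dim, at 42.9, 61.02 and 66.3 in the null livers and 99.6, 132 and 85.7 in the control livers. The null livers lay below the controls, and the test was missed (adjusted p = 0.0601). With the number run as a term the adjusted p of Adh4 was 0.0218. Adh7, the class IV enzyme known from the stomach and other epithelia, read 115, 157 and 127 in the null livers and 132, 152 and 159 in the controls, which overlapped. Its second probe set, -2.75, -2.32 and 1.41 in the null livers and 46.0, 60.95 and 32.1 in the control livers, was called lower (adjusted p = 0.00301), so the 2 Adh7 probe sets disagree, and the called one is dim in every array. Adh6a, Adh6b and the pseudogene Adh6-ps1 had log2 changes of -0.21, 0.32 and -0.47 and were not called, with all values between 17.7 and 116.

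**Figure D2:**
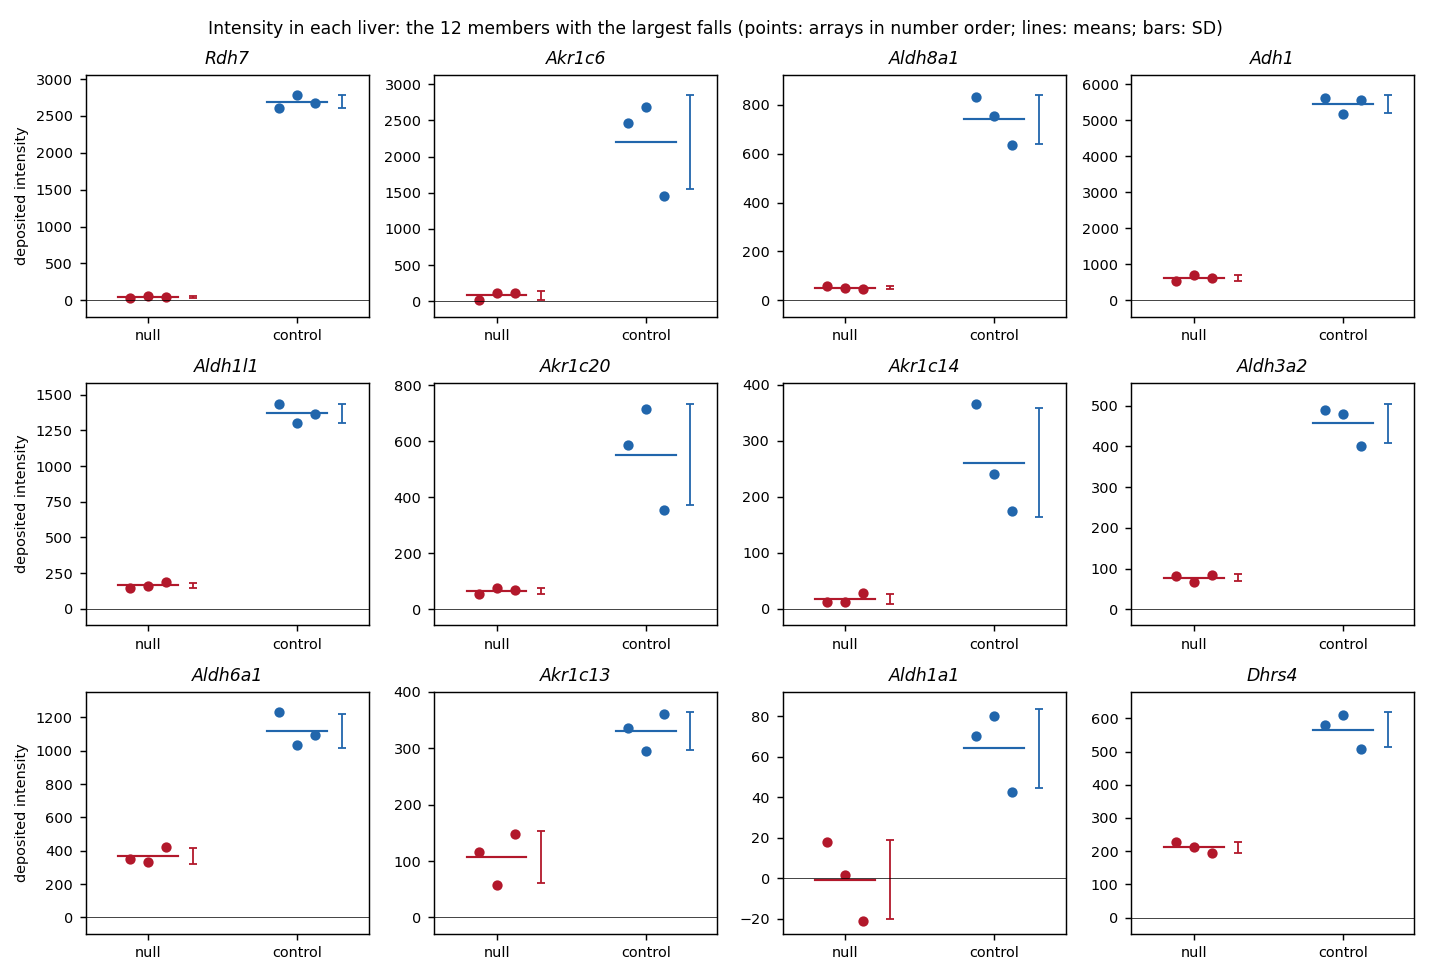
Deposited intensity in each liver for the 12 genes with the largest falls on the log2 scale, null livers in red on the left and control livers in blue on the right of each panel, with means as lines and SD as bars. In every panel the 3 null points lie below the 3 control points.

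Aldehyde dehydrogenases of amino acid and carnitine metabolism fell in 6 of 7 genes, against 7.85% of all genes. Aldh8a1, which oxidises the semialdehyde of the tryptophan and kynurenine route, read 59.4, 49.8 and 47.9 in the null livers, against 832, 754 and 635 in the control livers. The null values lie among the dim probe sets of the arrays, so no fold is given (log2 change -3.19, standard error 0.14, adjusted p = 1.87e-06). Its other probe set, higher in mean intensity but not in mean log2 value, had a log2 change of -4.22 and was called too, and the size depends on the pseudocount, at -3.79 with 1 and -2.46 with 100. Aldh6a1, the methylmalonate semialdehyde dehydrogenase of valine and pyrimidine breakdown, read 349.7, 332 and 424 in the null livers and 1232, 1033 and 1095 in the control livers. It fell 2.88-fold (log2 change -1.53, standard error 0.13, adjusted p = 0.000127), with a gap between the groups wider than either range.

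Aldh7a1, the antiquitin gene of lysine breakdown, read 509, 441 and 578 in the null livers, against 1244, 1183 and 1114 in the controls, and fell 2.25-fold (adjusted p = 0.00054). Its 2 other probe sets were dim and not called, with log2 changes of 0.34 and 0.13. With the mean of all 3 Aldh7a1 probe sets the call was lost (log2 change -0.24, adjusted p = 0.287). Aldh9a1, which makes a precursor of carnitine, read 571, 585 and 617 in the null livers and 1095, 1126 and 1028 in the controls, a fall of 1.79-fold (adjusted p = 0.00123), and its other probe set was called as well.

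Aldh4a1 and Aldh5a1 passed the test by a smaller margin. Aldh4a1, which completes proline breakdown to glutamate, read 407, 307 and 416 in the null livers and 635, 542 and 608 in the controls (fold 1.54, adjusted p = 0.0324). The call of Aldh4a1 was lost without Control_8, Control_1192, Control_1193 or Null_1191 (adjusted p = 0.123, 0.0791, 0.119 and 0.0956), with quantile normalization (0.0970) and with embryo sex as a term (0.0858). Aldh5a1, the succinate semialdehyde dehydrogenase of GABA breakdown, read 66.0, 53.0 and 44.1 in the null livers and 119.5, 96.1 and 104 in the controls (log2 change -0.68, adjusted p = 0.0202). Aldh5a1 was not called without Control_8, Control_1192, Control_1193, Null_1191 or Null_1195 (adjusted p = 0.0826, 0.0597, 0.0732, 0.0769 and 0.0700) or with embryo sex as a term (0.0590). The seventh gene, Aldh18a1, acts in the opposite direction of proline metabolism, as the synthase that makes its precursor. It read 345, 361 and 339.9 in the null livers and 267, 305 and 285 in the control livers, above the controls in all 3 and not called (log2 change 0.26, adjusted p = 0.22), and none of its 4 other probe sets was called.

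The aldehyde dehydrogenases of acetaldehyde and lipid aldehydes fell in 4 of 6 genes, against 7.85% of all genes. Aldh3a2, the fatty aldehyde dehydrogenase, read 82.9, 67.0 and 83.4 in the null livers, against 489.7, 479.7 and 402 in the control livers (log2 change -2.15, standard error 0.13, adjusted p = 1.61e-05). Aldh2, the mitochondrial enzyme that clears most acetaldehyde from ethanol, read 1397, 1466 and 1389.6 in the null livers and 2569.8, 2329.7 and 2553 in the controls. Its groups were apart, with little spread in either, for a fall of 1.73-fold (log2 change -0.79, standard error 0.09, adjusted p = 0.00104). Its 4 other probe sets lay between 20.7 and 133 in all arrays without a call, and the mean of all 5 gave Aldh2 no call (log2 change -0.35, adjusted p = 0.105). Aldh1b1, a second mitochondrial acetaldehyde dehydrogenase, read 77.6, 88.9 and 125 in the null livers and 200.3, 227 and 178 in the control livers (log2 change -0.87, adjusted p = 0.0124). For Aldh1b1 the adjusted p was 0.0727 with Control_1192 left out and 0.0601 with Null_1191 left out. Aldh3b1, which acts on lipid-derived aldehydes, read 60.3, 81.6 and 64.2 in the null livers and 139, 131 and 148 in the controls (log2 change -0.77, adjusted p = 0.00707). Aldh3b2 was not called, at 494, 492 and 621 in the null livers and 683, 685 and 678 in the controls (adjusted p = 0.155), although the groups were apart.

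The one-carbon and retinoid members of the Aldh family included both called and uncalled genes. Aldh1l1, the cytosolic 10-formyltetrahydrofolate dehydrogenase that is abundant in liver, read 149, 158 and 185 in the null livers, against 1438, 1302 and 1367 in the control livers. It fell 7.16-fold, with tight groups on both sides (log2 change -2.84, standard error 0.12, adjusted p = 1.68e-06). The second Aldh1l1 probe set was dim, at 55.5, 28.1 and 25.6 in the null and 16.0, 24.3 and 18.1 in the control livers, and the mean of both gave -1.23 on the log2 scale. Its mitochondrial paralogue Aldh1l2, named here after its values were seen, overlapped between groups (log2 change 0.04, standard error 0.15, adjusted p = 0.911). The difference between the 2 paralogues was not tested.

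Of the 3 retinaldehyde dehydrogenases 1 fell, against 7.85% of all genes. Aldh1a1, the form known from adult liver, was dim in every array, at 17.8, 1.46 and -21.0 in the null livers and 70.3, 80.3 and 42.5 in the control livers. The null values lie at or under 17.8 and the lowest control is 42.5 (log2 change -1.33, standard error 0.23, adjusted p = 0.0078). The call of Aldh1a1 was lost without Control_1192 (adjusted p = 0.0513) and with a pseudocount of 1 (0.0501). Aldh1a2, the main enzyme of retinoic acid synthesis in the embryo, read 81.0, 201 and 175 in the null livers and 143, 157 and 208 in the controls, which overlapped (adjusted p = 0.742). Aldh1a3 also overlapped, at 237, 265 and 382 in the null livers and 251, 286 and 305 in the controls (adjusted p = 0.919). Aldh16a1, a member without known catalytic activity in mammals, had a log2 change of -0.01 and was not called. The 2 Aldh genes not yet given had log2 changes of -0.05 and 0.21 and were not called.

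In the aldo-keto reductase family the falls lay mostly in the Akr1c group, where 4 of 8 genes fell, against 7.85% of all genes. These enzymes reduce or oxidise steroid hormones and other carbonyl compounds, and their sequences are alike, so signal shared between paralogues in 1 probe set was not tested. Akr1c6, a 17-beta-hydroxysteroid dehydrogenase of mouse liver, read 10.6, 114 and 118 in the null livers, against 2457, 2679 and 1458 in the control livers. Null_61 stood below the other nulls and Control_1193 below the other controls, and the groups were far apart (log2 change -4.46, standard error 0.46, adjusted p = 0.000419). Without Null_61 the log2 change of Akr1c6 was -3.86, and with pseudocounts of 1 and 100 it was -5.29 and -3.69.

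Akr1c20, an Akr1c enzyme of mouse liver, read 53.1, 74.6 and 69.1 in the null livers and 588, 713 and 355 in the control livers (log2 change -2.54, standard error 0.23, adjusted p = 0.000192). Its second probe set was dim, with a log2 change of 0.10, and the mean of both gave -1.22. Akr1c14, a 3-alpha-hydroxysteroid dehydrogenase, read 11.7, 12.4 and 28.7 in the null livers, against 366, 240.4 and 175 in the controls (log2 change -2.53, standard error 0.24, adjusted p = 0.00026). The lowest control value of Akr1c20 and of Akr1c14 was again that of Control_1193. For Akr1c14 the log2 change was -3.86 with a pseudocount of 1 and -1.59 with 100, and for Akr1c20 it was -1.94 with 100. Akr1c13, a reductase of xenobiotic carbonyls, read 116, 57.8 and 148 in the null livers and 335, 296 and 362 in the controls, with the null livers below in every case (adjusted p = 0.00644).

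Akr1c12, a close paralogue of Akr1c13, read 299.97, 159 and 163 in the null livers and 374, 362 and 368 in the controls, and just missed the test (log2 change -0.79, adjusted p = 0.0571). Here Null_61 lay nearest to the controls, and without it the adjusted p of Akr1c12 was 0.000603. Akr1c19 had the largest positive value of all 62 genes and was not called: it read 399.9, 78.6 and 144 in the null livers and 52.7, 29.7 and 74.3 in the control livers (log2 change 1.31, standard error 0.43, adjusted p = 0.125). Null_61 was by far its highest array. With the number run as a term Akr1c19 rose (log2 change 1.31, adjusted p = 0.0261), and in the 4 arrays without Null_61 and Control_8 it was not called. The other 2 Akr1c genes, Akr1c18 and Akr1c21, had log2 changes of -0.56 and 0.26, overlapped between groups and were not called.

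Outside the Akr1c group, 1 of 6 aldo-keto reductases fell, against 7.85% of all genes. Akr7a5, a reductase of succinic semialdehyde and aflatoxin aldehydes, read 516, 538 and 660.3 in the null livers and 737, 895 and 911 in the control livers (fold 1.46, adjusted p = 0.0495). This call sits at the threshold. It was lost without Control_8, Control_1192, Control_1193, Null_61 or Null_1191 (adjusted p = 0.0585, 0.188, 0.175, 0.0656 and 0.161). A second Akr7a5 probe set read 227, 239.6 and 208 in the null livers and 415, 399 and 428 in the controls and was called with more margin (adjusted p = 0.00277), and the third was not called. Akr1a1, the aldehyde reductase that also serves vitamin C synthesis in mice, read 3951, 4218 and 5300.0 in the null livers and 4193, 4491 and 4469 in the control livers. The groups overlapped (log2 change 0.02, standard error 0.12), and its 3 other probe sets had log2 changes between -0.01 and 0.07. Akr1e1, the 1,5-anhydro-D-fructose reductase, read 184, 175 and 170.4 in the null livers and 215, 189 and 295 in the controls, and Akr1b8, an aldose reductase-like gene, 124, 131 and 127 in the null livers and 117, 172 and 143 in the controls. Neither was called. The other 2 genes of this group had log2 changes of 0.19 and 0.20 and were not called.

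Among the retinol dehydrogenases, Rdh7 showed the largest fall of all 62 genes. It encodes a liver enzyme of the mouse that oxidises retinol and androgens, and it read 25.3, 54.9 and 47.8 in the null livers, against 2613, 2784 and 2680.1 in the control livers. The null livers thus lay among the dim probe sets of the arrays and the control livers varied little (log2 change -5.21, standard error 0.16, adjusted p = 4.81e-07). The size for Rdh7 was -6.02 on the log2 scale where 1 was added and -4.30 where 100 was added. The direction held in all 17 alternatives. Rdh5, the 11-cis-retinol dehydrogenase known from the eye, read 69.1, 54.5 and 59.3 in the null livers and 189, 186 and 181 in the controls (log2 change -1.23, standard error 0.12, adjusted p = 0.000267). Rdh9, a relative of Rdh7, read 62.7, 136 and 108 in the null livers and 60.2, 70.9 and 75.7 in the control livers, which overlapped, and it was not called (adjusted p = 0.337). Without Null_61, the lowest null array for it, Rdh9 rose (log2 change 0.60, adjusted p = 0.0318). Rdh10, the retinol dehydrogenase that the embryo needs for retinoic acid synthesis, read 208, 213 and 233 in the null livers and 219, 226 and 218 in the controls (log2 change -0.02, standard error 0.11, adjusted p = 0.944). The remaining 3 genes of this kind were dim, with log2 changes from 0.17 to 0.30, and none was called.

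Enzymes known to reduce retinaldehyde back to retinol fell in 3 of 6 genes, against 7.85% of all genes. Rdh11 read 171, 144 and 132 in the null livers, against 364, 358 and 339.6 in the control livers, and fell 2.14-fold (log2 change -1.09, standard error 0.12, adjusted p = 0.000755). Both of its probe sets were called. Dhrs3, a reductase of retinaldehyde that retinoic acid itself induces, read 258, 219 and 193 in the null livers and 492, 408 and 405 in the controls, a fall of 1.83-fold (adjusted p = 0.00573). Dhrs4, a peroxisomal reductase of retinaldehyde and other carbonyls, read 227, 213 and 193 in the null livers and 579, 611 and 508 in the control livers, and fell 2.46-fold (log2 change -1.30, standard error 0.12, adjusted p = 0.000255). Its other probe set gave -1.35. Rdh12 and Rdh14 had the null livers below the controls without passing the test. Rdh12, known from photoreceptors, read 89.5, 105 and 108 in the null livers and 169.7, 143 and 149 in the controls (adjusted p = 0.0537). Rdh14 read 274, 254 and 265 in the null livers and 449.5, 368 and 326 in the controls (adjusted p = 0.0821), and the mitochondrial Rdh13 overlapped, at 81.2, 102 and 97.5 in the null livers and 82.3, 83.8 and 76.5 in the controls.

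None of the other 8 Dhrs genes was called, and Dhrs7c alone was apart on the low side and Dhrs13 alone on the high side. Dhrs11 varied most among them, at 1419, 1009 and 631 in the null livers and 1025, 1021 and 809 in the control livers. The null values span the whole control range and more (log2 change 0.03, standard error 0.25). Dhrs1 read 237, 133 and 143 in the null livers and 239, 217 and 219 in the controls. Null_61 alone lay with the controls, and without it Dhrs1 fell (adjusted p = 0.0164). Dhrs13 read 252, 164 and 156 in the null livers and 138, 139 and 132 in the controls, above them in every null liver and not called (adjusted p = 0.241). Dhrs7 and Dhrs7b overlapped between groups, with log2 changes of 0.13 and 0.11. A second Dhrs7 probe set, with a mean of 306 against 397, went the other way without a call (log2 change -0.58, adjusted p = 0.142). The mean of all Dhrs7 probe sets gave -0.12 on the log2 scale. The other 3 had log2 changes from -0.42 to 0.14.

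Members that lie next to each other on a chromosome included both called and uncalled genes. By the order of genes in the RefSeq annotation, 3 stretches hold 3 or more members with at most 4 other genes between neighbours. In the first, Rdh1, Rdh9, Rdh16, Rdh16f2 and Rdh7 follow each other, and of these 5 only Rdh7 was called. The second holds 8 Akr1c genes and Akr1e1. Its called genes, Akr1c14, Akr1c13, Akr1c6 and Akr1c20, are separated by uncalled ones except for the adjoining pair Akr1c6 and Akr1c20. Of the uncalled ones, Akr1c18 and Akr1c21 were dim, with means of 94.7 and 67.4. Akr1c19, Akr1c12 and Akr1e1 were brighter, at 130, 288 and 205. The third holds all 7 Adh genes in the order Adh7, Adh1, Adh6a, Adh6b, Adh6-ps1, Adh4 and Adh5, with Adh1 and Adh5 called. Here Adh6a, Adh6b, Adh6-ps1 and Adh4 were dim, with means of 28.9, 56.8, 76.6 and 81.3, and Adh7 had 140. The differences between neighbours were not tested.

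**Figure D3:**
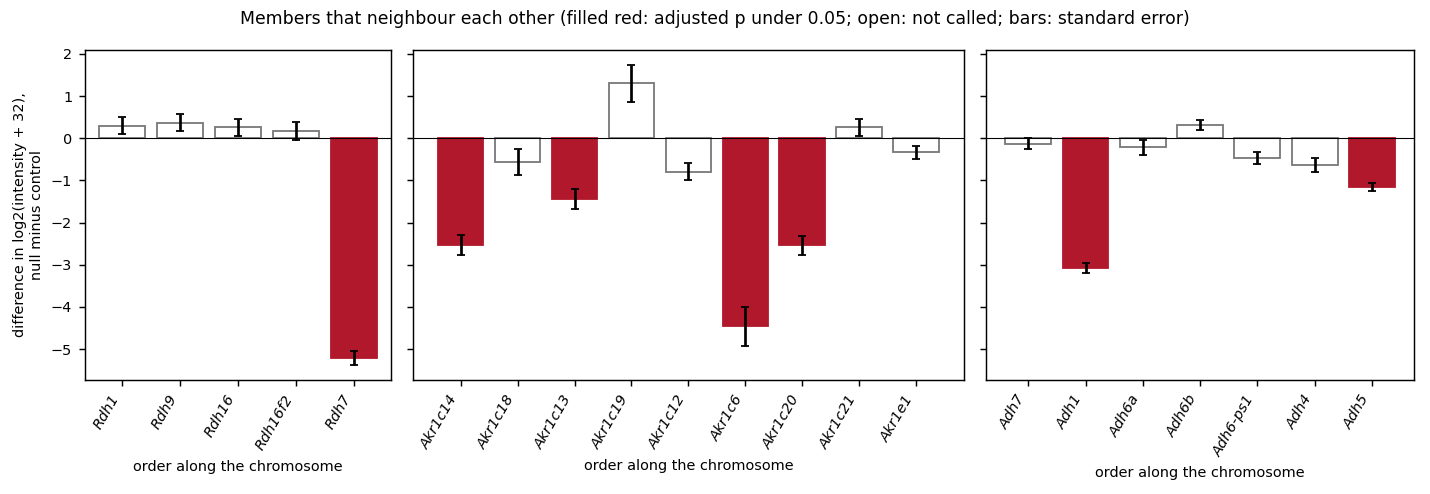
Difference in log2(intensity + 32), null minus control, with standard errors, for the 3 stretches of neighbouring members, drawn in chromosome order without distances; filled red bars passed an adjusted p of 0.05. Rdh7 at -5.21 stands beside 4 dim, uncalled neighbours between 0.17 and 0.37. Akr1c6 at -4.46 stands in a row that also holds Akr1c19 at 1.31, which was not called.

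Several genes have more than 1 probe set here, and these did not always speak alike. Of the 10 called genes with other probe sets, 4 had all of them called and 6 had at least 1 that was not. Among the 10 uncalled probe sets of those genes, 7 had a mean at or under 99.5. The other probe sets of Aldh8a1, Aldh9a1, Rdh11 and Dhrs4 were all called lower. Over the 99 probe sets, 30 fell and 0 rose, against 5.55% lower and 1.46% higher among all 45037.

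**Figure D4:**
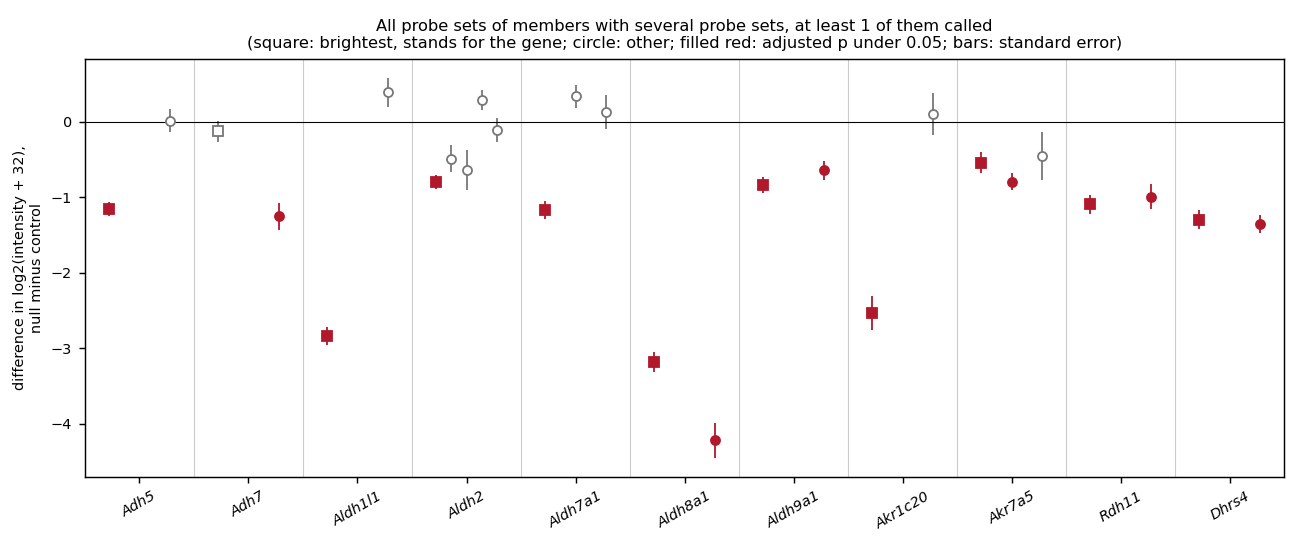
Difference in log2(intensity + 32), null minus control, with standard errors, for every probe set of the 11 genes with several probe sets of which at least 1 passed an adjusted p of 0.05; squares stand for the gene and circles are its other probe sets. All probe sets of Aldh8a1, Aldh9a1, Rdh11 and Dhrs4 are called, and in Adh7 the square is the uncalled one.

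Other genes of the same pathways were read from lists chosen with earlier results known. Of 5 measured genes that act beside the Adh and Aldh enzymes on ethanol, acetate or related hydroxy acids, all 5 fell, with a median log2 change of -0.75, against 0.01 over all genes. Over all genes 7.85% fell and 1.56% rose. Cyp2e1, the microsomal ethanol oxidase, read 57.4, 74.1 and 91.7 in the null livers and 3629.9, 4913 and 2932 in the control livers (adjusted p = 1.13e-06). Adhfe1, a hydroxyacid-oxoacid transhydrogenase, fell 3.03-fold, Acss1, a mitochondrial acetyl-CoA synthetase, 1.499-fold, and Cat, the peroxisomal catalase, 1.43-fold.

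Of 34 other short-chain dehydrogenases and reductases measured, 20 fell (58.8%) and 0 rose, against 7.85% and 1.56% of all genes, with a median of -0.84. Hsd17b13, a lipid droplet enzyme, read -10.6, 6.13 and 9.25 in the null livers and 2259, 2342 and 1954 in the control livers. Hsd17b2, which inactivates sex steroids, read 25.2, 29.5 and 35.7 in the null livers and 1146, 1429.8 and 1158 in the controls. Hsd3b7, of bile acid synthesis, fell 11.01-fold and Hsd11b1, which regenerates active glucocorticoid, 5.54-fold.

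Of 13 genes of retinoid carriage, storage and clearance 5 fell (38.5%) and 1 rose (7.69%), against 7.85% and 1.56% of all genes, with a median of -0.10. Ces1d, a carboxylesterase with retinyl ester hydrolase activity, read 50.3, 47.3 and 45.5 in the null livers and 2242, 1517 and 1530.2 in the controls. Rbp2, a cellular retinol-binding protein gene, fell 4.94-fold. Rbp4, the plasma carrier of retinol, fell 1.62-fold and Ttr, which binds that carrier, 1.37-fold. The gene that rose was Stra6, a retinol transporter, at 123, 115 and 96.2 in the null livers and 39.6, 60.5 and 63.2 in the control livers (adjusted p = 0.0209), named here after its value was seen. None of 6 retinoic acid and retinoid X receptor genes was called, with a median of -0.08. By limma 1 of these 6 had an unadjusted p under 0.05, Rxra, whose adjusted p was 0.0533, against 24.3% of all genes. Cyp26a1, the retinoic acid hydroxylase that retinoic acid induces, was dim, with a mean of 74.5. It overlapped between groups (log2 change 0.01, standard error 0.14). The brighter Cyp26b1, with a mean of 216, lay above the controls in every null liver and was not called (log2 change 0.35, adjusted p = 0.108).

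Antioxidant response genes, among which Akr and Aldh members are often counted, had 1 fall in 11 measured, with a median of -0.01. This share, 9.09%, is near the 7.85% of all genes that fell. The gene that fell was Gsta4, a glutathione transferase of lipid aldehydes, by 2.50-fold. Of 6 genes of the aryl hydrocarbon receptor battery 1 fell (16.7%), the receptor gene Ahr itself, by 1.58-fold.

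Markers of cells other than hepatocytes moved in part with the groups. Of 7 markers of stellate cells, which store retinyl esters, none was called. An unadjusted p under 0.05 in limma was seen in 4 of the 7, a larger share than the 24.3% of all genes. The 7 had a median log2 change of 0.36 and a summed intensity of 2746 to 3608 in the null and 2375 to 2477 in the control livers. Lrat, the defining stellate cell enzyme, read 102, 96.5 and 113 in the null and 87.4, 116 and 93.7 in the control livers. The 5 macrophage markers summed to 3268 to 4981 in the null and 2256 to 2502 in the control livers, with 2 called higher. The 5 endothelial markers summed to 1126 to 1330 in the null and 1625 to 1840 in the control livers, with 2 called lower. The 4 mesothelial markers summed to 167 to 273 in the null and 167 to 252 in the control livers, all of them dim, with Wt1 called higher. Over all genes 7.85% were called lower and 1.56% higher. Of 4 cholangiocyte, 4 erythroid and 4 neutrophil markers none was called, and 1, 1 and 0 had an unadjusted p under 0.05 in limma, near or below the 24.3% of all genes. Summed intensities in the null and the control livers were 619 to 775 and 640 to 722 for cholangiocytes. They were 3687 to 5225 and 3658 to 4508 for erythroid cells, and 10987 to 13106 and 12330 to 13616 for neutrophils. The part of these cells in the changes of the oxidoreductase genes was not tested.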

How the data were processed

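Total RNA of 3 null and 3 control fetal livers was hybridised to 1 Affymetrix array each. Each deposited table gives a linear intensity per probe set, of which 0.908% to 1.34% per array lie below 0. Per the labels' protocols, labelling followed the standard Affymetrix procedure. The sources used here do not give the software, the background step or the scaling.

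Log2 values were taken after raising negative ones to 0 and adding 32. Array medians then differed by 0.0877 at most, within the tolerance of 0.2, so the deposited scaling was kept. The 64 array control probe sets were left out. Of 45037 probe sets, 34945 had 1 symbol, 932 several and 9160 none, and 5 with several symbols that include one of these families were not used. All 62 genes matched the RefSeq gene table. The test was limma 3.58.1 under R 4.3.3 (lmFit, eBayes with an intensity trend, no covariate) with Benjamini-Hochberg adjustment over all 45037. The number of arrays limits the precision. The fit was tested on simulated data with independent noise and changes only in probe sets above the median control level. That simulation held no number run or sex, so it does not cover these or dim genes. An exact two-sided permutation test of 3 against 3 cannot go below 0.1, so none is given.

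The members and lists were chosen with earlier results of these data known. The groups by role within or across families were set by hand and were not tested as sets. Named were every called gene, up to 5 bright uncalled genes per family, genes whose probe sets disagree, and up to 4 called genes per list. Alternatives were 2 other scalings, pseudocounts of 1 and 100, a filter on dim probe sets, no trend, array weights, the mean of probe sets, the number run or embryo sex (read from Xist and Y-linked probe sets) as a term, the 4 arrays without Null_61 and Control_8, and each array left out.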

Additional observations from a re-analysis of the deposited data

How the results depend on the processing

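The count of falling genes stayed between 19 and 28 under all 17 alternatives, against 24. Leaving out each array in turn gave 19 to 25 falls and 0 to 1 rises, without shares over all genes to set beside them. The number run as a term gave 28 falls, the 24 among them, and 1 rise, and over all genes it moved the calls to 2021 falls and 747 rises, against 1428 and 283. Quantile normalization gave 23 falls and 0 rises, against 1196 and 617 over all genes, and shifted the median of all genes to 0.06. Embryo sex, which was uneven between the groups, moved the calls over all genes to 1102 falls and 170 rises as a term. Among the 24 falls it lost those of Aldh4a1, Aldh5a1 and Akr7a5. Of the 24 falls, 17 held under every alternative that tested them, and 7 were lost under at least 1: Aldh1a1, Aldh1b1, Aldh2, Aldh4a1, Aldh5a1, Aldh7a1 and Akr7a5. Akr7a5 was lost most often, under 10, with quantile normalization (adjusted p = 0.166), embryo sex as a term (0.124), no intensity trend (0.0709) and pseudocounts of 1 (0.0522) and 100 (0.0517) beside 5 of the arrays left out. No called gene changed direction under these alternatives. No paired analysis was possible because the titles of the null and control livers share no number. With 3 arrays in each group and no detection calls, changes of dim genes such as Aldh1a1, Adh4 and Adh7 are poorly measured.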

Other observations

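Null_61 differed from the other null livers in several members of the Akr1c and Dhrs groups. It read 399.9 for Akr1c19, against 78.6 and 144 in Null_1191 and Null_1195, and 299.97 for Akr1c12, against 159 and 163. For Dhrs1 it read 237, against 133 and 143, and for Dhrs13 it read 252, against 164 and 156. For Akr1c6 the order was turned, with 10.6 in Null_61 and 114 and 118 in the others. Null_61 was also the only male null liver and was numbered apart from the other null livers. Its control for the 5′ end of 18S ribosomal RNA read 33.5, against 515 and 616 in them. Its array weight in limma, 0.39, was the lowest of all arrays. Whether these traits go with its differences was not tested.

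Among the 12 members with the largest falls, Control_1193 was the lowest control liver in 7: Akr1c6, Akr1c20, Akr1c14, Aldh8a1, Aldh3a2, Aldh1a1 and Dhrs4. It read 1458 for Akr1c6, 355 for Akr1c20, 175 for Akr1c14 and 635 for Aldh8a1, while the other 2 controls lay between 2457 and 2679, 588 and 713, 240 and 366, and 754 and 832. In the other Aldh8a1 probe set Control_8 was lowest, at 696, and Control_1193 read 788. For Akr1c18 it was the highest array of all 6, at 202, with the others between 48.6 and 99.8. No cause of these differences between livers of 1 group was tested.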
